A study of Arabidopsis thaliana with 72 samples.

Results

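The genes described here encode calmodulin-like calcium sensors (CML) and glutamate receptor-like channels (GLR) of Arabidopsis thaliana, in seedlings moved to a low-pressure, low-oxygen atmosphere. Members were the probe sets that the array's annotation assigns to 1 gene and whose symbol starts with any of 10 calcium-signalling prefixes followed by a number (CML, CPK, CDPK, CIPK, CBL, CAM, ACA, CAX, CNGC and GLR), with CML38 left out. The rule found 13 of 22810 probe sets, or 13 of the 13513 that name 1 gene. They were 6 calmodulin-like genes (CML23, CML30, CML37, CML41, CML42 and CML43) and 7 glutamate receptor-like genes (GLR1.4, GLR2.7, GLR2.8, GLR2.9, GLR3.3, GLR3.5 and GLR3.6). The RefSeq gene table used for names holds 142 genes with these prefixes, 8 of them CML and 18 GLR. No member was a calcium-dependent kinase, a CBL sensor or its kinase, a calmodulin, a calcium pump, an exchanger or a cyclic nucleotide-gated channel, so the results below are about the CML and GLR genes only.

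Plants read many stimuli through short rises of calcium in the cytosol. Calmodulin-like proteins bind the calcium through EF-hand motifs, change shape and act on target proteins, while glutamate receptor-like proteins form cation channels in membranes, some of which are opened by amino acids. Both families are known from wounding, immunity and growth, and a calcium signal is also part of how roots and shoots respond to a lack of oxygen.

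Plants of the accession Wassilewskija, 10 days old and grown on plates of solid medium in constant light, were placed in pressure chambers for 1, 3, 6, 12, 48 or 72 h. One treatment was 10 kPa total pressure with 2.1 kPa oxygen, the other 97 kPa with 21 kPa oxygen, and both held 0.05 kPa carbon dioxide, so total pressure and oxygen changed together and cannot be told apart. Some labels give the control as ambient pressure by another figure, and the groups follow the chamber setting. Roots and shoots (the whole aerial part with the hypocotyl) were dissected from tubes of about 12 plants, 1 tube from each of 3 chambers per group, and each array measured 1 tissue of 1 tube. This gave 72 ATH1 arrays in 24 groups of 3, which were the 10 kPa and the 97 kPa group of each tissue at each of the 6 times. Both tissues of the same tube were hybridised for 29 tubes. All groups were of the same accession, and the labels name no mutant or transgene.

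Values are MAS5 signal intensity on a linear scale, with the trimmed mean of every array at 500. Replicate arrays correlated at 0.828 to 0.947. Of 24 core low-oxygen genes, 13 had a probe set of their own, and 13, 13, 12, 12, 12 and 8 of these were called higher at 10 kPa in roots at 1, 3, 6, 12, 48 and 72 h. In shoots the numbers were 12, 9, 9, 7, 6 and 5, and 2 and 5 were called lower at 48 and 72 h. Summed signal of 7 photosynthesis genes (of 12 listed shoot markers) was 2487 to 19637 in roots at 10 kPa and 2644 to 14693 in roots at 97 kPa, against 102890 to 153070 in shoots at 10 kPa and 112650 to 176500 in shoots at 97 kPa. The root sums were highest at 48 and 72 h, and their part in the results was not tested. Of 15 root markers only 2 had probe sets (EXPA7 and EXPA18, expansins of root hairs), and their sum was 205.1 to 987 and 206 to 1307 in roots at 10 and 97 kPa, against 19.2 to 137 and 14.1 to 156 in shoots at 10 and 97 kPa. The array numbers in the labels form blocks. The 97 kPa arrays of 6 to 72 h come before the 10 kPa arrays, and those of 1 and 3 h come after them. Only 4 arrays of 72 h, of both pressures, are numbered apart. The labels do not say what the numbers stand for. Array number thus cannot be told apart from pressure, nor from early against late times among the controls, which enter the late minus early contrasts. The GAPDH 3′ to 5′ signal ratio, a measure of RNA integrity and labelling length, also differed between the pressures in late shoots and at some times in roots, and is given beside the results there.

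The tissues differed in the signal level of some of these genes at 97 kPa. CML43 and GLR3.6 had higher signal in roots, and GLR2.7 and CML41 had higher signal in shoots. A gene counts as called where its Benjamini-Hochberg adjusted p, over all probe sets of the fit, was below 0.05 in limma. All 11 tested members passed, but GLR2.7 met the filter on low signal through shoot arrays alone, so that its difference was fixed by the filter, and it is described without a test. The other 10 members were all called, 7 higher and 3 lower in roots, but 79.9% of all 17901 probe sets tested were called too (53% higher and 26.8% lower), and the median probe set was 0.34 higher in roots on the log2(signal + 8.901) scale used for every change below. GLR2.8 and GLR2.9 lay below the 40th percentile of their array on all 72 arrays and were not tested.

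CML43, a sensor linked to the hypersensitive response to pathogens, ranged from 163 through a median of 333 to 456 in roots at 97 kPa. In shoots at 97 kPa it ranged from 7.61 through 65.7 to 136. The tissues did not overlap, and the root minus shoot difference was 2.29 ± 0.22 (SE, 18 arrays each, limma adjusted p = 5.58e-14), or 1.95 above the median probe set. GLR3.6, one of the channels that carry wound-induced electrical signals from leaf to leaf, had 148 to 616 with a median of 276 in roots and 60.7 to 270.4 with a median of 149.6 in shoots. Its difference was 0.91 ± 0.13 (limma adjusted p = 5.10e-09), with some overlap of the tissues. CML42, known from trichome branching and from defence against herbivores, had a median of 687 in roots and 409.6 in shoots (360.1 to 877 and 346 to 581), a difference of 0.58 ± 0.08 (limma adjusted p = 1.86e-09).

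GLR2.7, a channel with a part in calcium entry during pattern-triggered immunity, showed the opposite. In roots at 97 kPa its signal had a median of 14.0 (range 3.73 to 138), and none of the 36 root arrays of both pressures reached the 40th percentile. In shoots at 97 kPa the median was 193 (95.3 to 313), and 35 of the 36 shoot arrays of both pressures reached it. The log2 levels differed by −2.82. GLR2.7 lies in a row with GLR2.8 and GLR2.9 as next neighbours in the gene table. Both neighbours had low signal in both tissues, with medians of 56.5 in roots and 43.8 in shoots over both pressures for GLR2.8, and of 7.48 and 3.41 for GLR2.9.

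CML41, a sensor at plasmodesmata that promotes callose deposition there in immunity, had a median of 69.1 (5.88 to 221) in roots and 225 (137 to 344) in shoots at 97 kPa. Its difference was −1.63 ± 0.24 (limma adjusted p = 1.13e-08). CML30, a sensor found in mitochondria, was lower in roots by less, −0.71 ± 0.29 (limma adjusted p = 0.0204), and CML37, a sensor induced by wounding and herbivory, by −0.51 ± 0.23 (limma adjusted p = 0.0394). CML37 lost that call when any 1 of 14 arrays was left out and CML30 for 3 (highest limma adjusted p 0.114 and 0.0586). CML37 passed the filter through only 1 root and 2 shoot arrays, all at 97 kPa, so values that the filter used enter its difference.

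The other 4 called genes lay within 0.39 of the median probe set, as did CML42, which was 0.24 above it. CML23, known with its closest relative CML24 from nitric oxide levels and flowering time, was 0.73 ± 0.17 higher in roots, GLR1.4, a channel opened by methionine in frog oocytes, 0.56 ± 0.18, GLR3.3, the partner of GLR3.6 in wound signals, 0.35 ± 0.10, and GLR3.5, a channel of organelles, 0.38 ± 0.17. After quantile normalization of the arrays, which brought the median of all probe sets to 0.10, none of these 4 was called (0.31, 0.17, 0.09 and −0.16), and GLR3.5 changed sign. With that scaling CML43, GLR3.6 and CML42 were still called higher in roots, and CML37, CML30 and CML41 lower. The GAPDH 3′ to 5′ ratio was 81.0 to 1312 in roots and 10.1 to 26.2 in shoots at 97 kPa, and with its log2 as a covariate, which nearly repeats the tissue, none of the 10 was called. In whole organs, fewer cells of a type and less RNA per cell cannot be told apart.

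**Figure D1:**
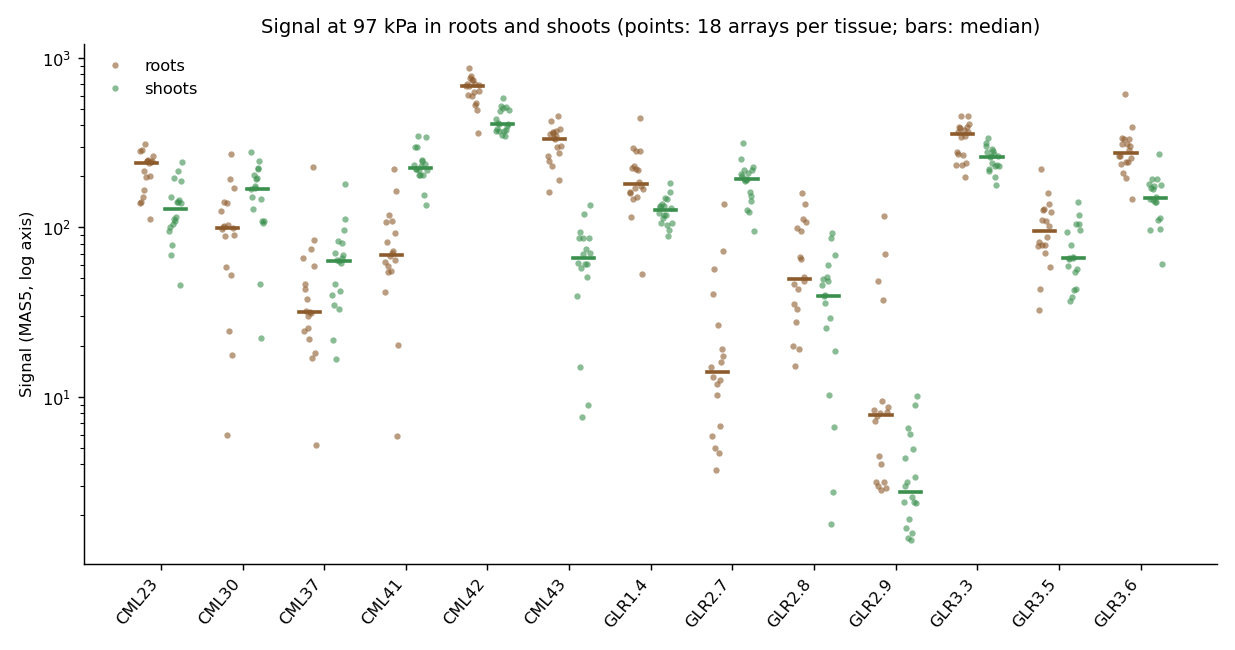
Signal (MAS5, log axis) of the 13 genes at 97 kPa, with roots left of shoots, each point 1 of 18 arrays and each bar the median. CML43 is apart in the tissues, with root medians of 333 against shoot medians of 65.7, and GLR2.7 shows the reverse, with 14.0 in roots and 193 in shoots.

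In shoots, 3 sensors moved with low pressure at single times. CML30 was lower at 10 kPa at 6 and 12 h, CML23 was higher at 48 h, and CML42 was higher at 48 and 72 h. Averaged over all 6 times GLR2.7 was higher as well, with uneven changes from 0.06 at 3 h to 0.83 at 12 h. No GLR gene was called at a single time.

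At 1 and 3 h no member of the 10 tested in shoots was called by limma (background 4.36% and 5.4% of 15794 probe sets), with 1 and 3 members at an unadjusted p below 0.05. At 6 h 1 member was called, downward (background 11.7%, and 5.92% downward), and at 12 h again 1 downward (7.41%, and 3.59% downward). At 48 h 2 were called upward (23.7%, and 10.4% upward) and at 72 h 1 upward (19.8%, and 9.33% upward). The median change of the 10 members at these 6 times was 0.07, 0.11, 0.13, 0.05, 0.64 and 0.26, beside 0.04, 0.01, 0.03, 0.01, −0.04 and −0.02 over all probe sets tested. The share of members called in either direction was thus near or under that of all probe sets at each of the 6 times. Of the 60 single-time tests in shoots, 17 had an unadjusted p below 0.05 and 5 were called.

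**Figure D2:**
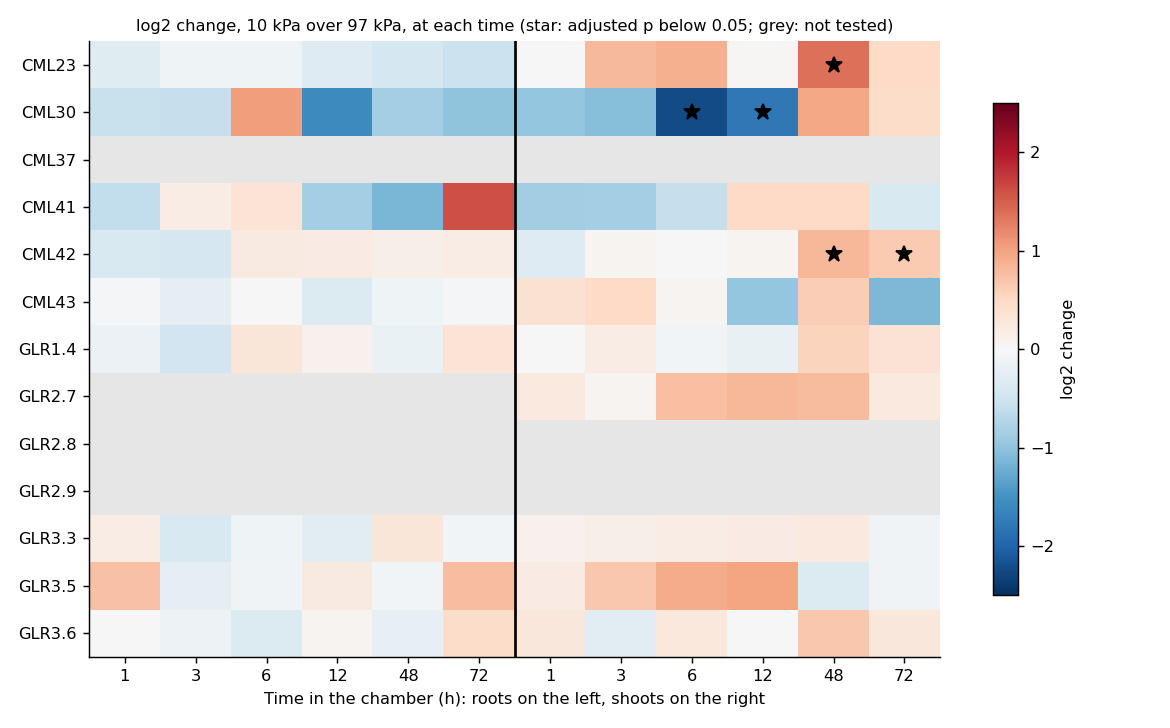
Log2 change, 10 kPa over 97 kPa, for the 13 genes (rows) at each time (columns, in h), with roots in the left block and shoots in the right block, stars where the limma adjusted p was below 0.05 and grey where a gene was not tested in that tissue. All 5 stars lie in shoots, blue for CML30 at 6 and 12 h and red for CML23 at 48 h and CML42 at 48 and 72 h.

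CML30 had the steepest decrease among the members in shoots. At 6 h its signal was 14.8, 37.3 and 58.0 at 10 kPa, against 176, 193 and 195 at 97 kPa. At 12 h it was 186, 76.5 and 11.7 at 10 kPa, against 225, 222 and 247 at 97 kPa. The groups did not overlap at either time, though the 3 low-pressure arrays at 12 h lay far apart. The log2 change was −2.23 ± 0.52 at 6 h (SE, n = 3 each, limma adjusted p = 0.00331) and −1.78 ± 0.52 at 12 h (limma adjusted p = 0.0297). The 6 h call held when each of its 6 arrays was left out in turn (−2.57 to −1.82). The 12 h call was lost in 5 of these 6 fits (−2.52 to −0.90, highest adjusted p 0.346), including when the 10 kPa array at 11.7 was omitted, and in a fit of its 6 arrays alone (adjusted p = 0.104).

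The difference in CML30 had the same sign at 1 and 3 h and the opposite sign at 48 and 72 h, without a call at any of these times. At 1 h the signal was 179.6, 50.9 and 89.5 at 10 kPa against 168, 279 and 151 at 97 kPa. At 3 h it was 74.0, 96.6 and 55.8 at 10 kPa against 128, 203 and 169.98 at 97 kPa. The groups overlapped at 1 h and were apart at 3 h, with a change of −1.07 that did not pass (limma adjusted p = 0.279). At 48 h the signal was 132, 125 and 98.4 at 10 kPa against 46.1, 22.1 and 148 at 97 kPa, and at 72 h it was 148, 122.5 and 188 at 10 kPa against 109, 106 and 109 at 97 kPa. The low-pressure arrays at 72 h all lay above the controls, without a call. The late effect (mean of 48 and 72 h) minus the early effect (mean of 1 and 3 h) was 1.72 ± 0.52 (limma adjusted p = 0.0193). Late minus early was called for 2 of 10 members, both upward (background 18.2%, and 7.72% upward).

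CML42 was the other of these 2. Its signal in shoots at 48 h was 813, 696 and 676 at 10 kPa, against 346, 510.4 and 376 at 97 kPa. At 72 h it was 529, 687 and 873 at 10 kPa, against 398, 409.5 and 495 at 97 kPa. Every low-pressure array was above every control at both times, with changes of 0.83 ± 0.18 (limma adjusted p = 0.000859) and 0.65 ± 0.18 (limma adjusted p = 0.00878). The 72 h call was lost without the 10 kPa array at 873 (0.47, adjusted p = 0.0878).

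At 1 h CML42 lay the other way, with 312, 328 and 311 at 10 kPa against 372, 437 and 383 at 97 kPa, without a call. From 3 to 12 h its groups overlapped, with means of 419 ± 61.6, 453 ± 38.7 and 503 ± 35.2 at 10 kPa (SD, n = 3) against 398 ± 24.4, 452.5 ± 90.7 and 487 ± 106 at 97 kPa. Its late minus early difference was 0.86 ± 0.18 (limma adjusted p = 0.000856).

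CML23 had 304, 339.9 and 194 in shoots at 48 h at 10 kPa, against 142, 146 and 45.6 at 97 kPa. The groups did not overlap, and the change was 1.37 ± 0.39 (limma adjusted p = 0.00952). Without the 97 kPa array at 45.6 it was 0.88 and no longer called (adjusted p = 0.12), and a fit of these 6 arrays alone gave an adjusted p of 0.0667. At 3 h the 10 kPa arrays (230.1, 170.2 and 194) were also all above the 97 kPa arrays (151, 79.1 and 104), by 0.82 ± 0.39 without a call (limma adjusted p = 0.265). At 6 h 1 low-pressure array stood high, with 204, 196 and 417 at 10 kPa against 113, 196 and 109 at 97 kPa. At 1, 12 and 72 h the means were 91.2 ± 36.7, 182 ± 131 and 267 ± 47.1 at 10 kPa (SD, n = 3) against 88.3 ± 16.9, 157 ± 51.4 and 190.1 ± 51.2 at 97 kPa, and the groups overlapped.

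The GAPDH 3′ to 5′ ratio of shoots averaged 83.5 at 10 kPa and 16.1 at 97 kPa at 48 h, and 46.5 and 13.3 at 72 h, while at 6 h it was 20.7 and 13.6 and at 12 h 20.1 and 20.0. In a fit with the log2 of this ratio as a covariate, added after the data were seen, neither CML42 nor CML23 was called at 48 or 72 h (CML42 0.36 and 0.28, CML23 0.59 at 48 h). The late minus early calls of CML30 and CML42 were lost in it too (1.14 and 0.46, adjusted p = 0.433 and 0.304). The CML30 calls at 6 and 12 h held in it (−2.40 and −1.78). Ratio and pressure go together in late shoots, and the part of RNA integrity in the late increases was not tested apart from this fit.

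**Figure D3:**
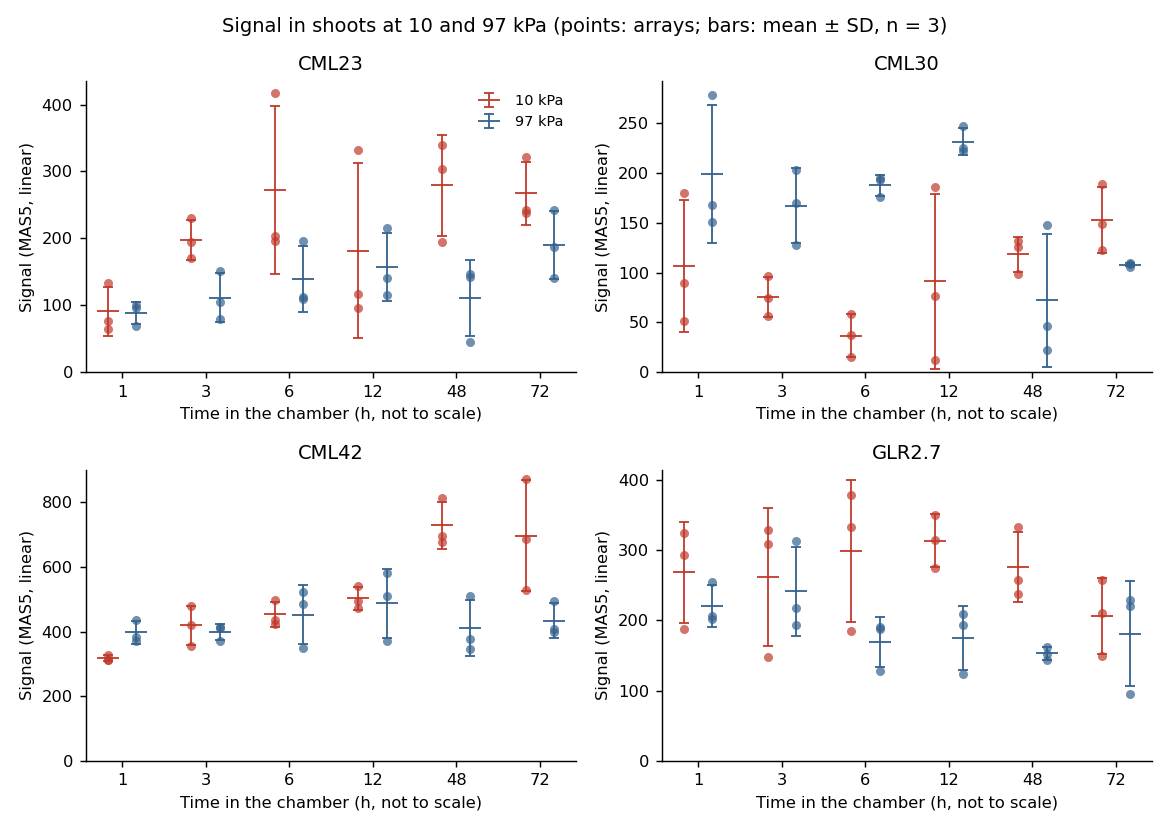
Signal (MAS5, linear) in shoots by time (h, not to scale) for CML23, CML30, CML42 and GLR2.7, with 10 kPa left of 97 kPa, points for arrays and bars for mean ± SD of 3. CML30 at 6 h lies at 14.8 to 58.0 at 10 kPa below 176 to 195 at 97 kPa, and CML42 at 48 h at 676 to 813 above 346 to 510.4.

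Averaged over the 6 times, 4 of 10 members in shoots were called (background 36.2%), a share near that of all probe sets. Of these, 3 were higher (background 18.6%) and 1 lower (17.6%). CML23 was 0.60 ± 0.16 higher at 10 kPa (95% interval 0.28 to 0.92, limma adjusted p = 0.00304), and higher at 5 of 6 times. CML42 was 0.22 ± 0.07 higher (limma adjusted p = 0.0176), with calls at single times only at 48 and 72 h. CML30 was lower, by −0.77 ± 0.21 (limma adjusted p = 0.00441), at 4 of 6 times. Each of the 4 kept its call when any 1 of the 36 shoot arrays was left out. With the GAPDH ratio as a covariate only CML30 was called (−1.01).

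GLR2.7 was higher at 10 kPa at 6 of 6 times, with a mean effect of 0.49 ± 0.12 (95% interval 0.24 to 0.74, limma adjusted p = 0.00203). At 12 h its signal was 350.3, 275 and 314 at 10 kPa, against 193, 209 and 123 at 97 kPa. At 48 h it was 333, 237 and 257 at 10 kPa, against 162, 144 and 153 at 97 kPa. The groups did not overlap at these 2 times and overlapped at the other 4, and at 48 h the change of 0.80 had a limma adjusted p of 0.053. It was called at 48 h with quantile normalization (adjusted p = 0.0211), the stricter filter (0.0474) or a higher pseudocount (0.0492), and at 12 h with those 6 arrays alone (adjusted p = 0.0381). At 1, 3, 6 and 72 h the means were 268 ± 71.9, 261 ± 98.6, 298 ± 101 and 206 ± 54.2 at 10 kPa (SD, n = 3) against 221 ± 29.5, 241 ± 63.2, 169 ± 35.5 and 181 ± 74.5 at 97 kPa. With the GAPDH ratio as a covariate its mean effect was 0.35 (adjusted p = 0.185).

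GLR3.5 came closest to a call among the rest, with a mean effect of 0.39 ± 0.16 in shoots (95% interval 0.06 to 0.72, limma adjusted p = 0.0615). At 6 h its signal was 94.2, 138 and 114 at 10 kPa, against 38.8, 67.1 and 65.7 at 97 kPa. At 12 h it was 163, 69.3 and 87.5 at 10 kPa, against 42.7, 54.3 and 43.2 at 97 kPa. Every low-pressure array lay above every control at 3, 6 and 12 h, and the groups overlapped at 1, 48 and 72 h. It was called with no trend in the prior variance (adjusted p = 0.0474). With the GAPDH ratio as a covariate the effect was 0.37 (adjusted p = 0.312), and over the alternatives in the pseudocount, filter, normalization and the arrays numbered apart the adjusted p was 0.058 to 0.0905.

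CML41 in shoots was low early at 10 kPa. Its signal at 1 h was 167, 78.4 and 172 at 10 kPa against 233, 298 and 219.8 at 97 kPa, and at 3 h it was 109, 169.7 and 193 at 10 kPa against 222, 299 and 344 at 97 kPa. At 6 h it was 139.7, 157 and 116 at 10 kPa against 217, 205 and 204 at 97 kPa. At these 3 times all low-pressure arrays lay below all controls, yet none was called (changes −0.87, −0.85 and −0.58, limma adjusted p = 0.174, 0.171 and 0.337). At 12 h 2 of 3 low-pressure arrays were high, with 531, 145 and 523 at 10 kPa against 229, 248 and 249.5 at 97 kPa. Over the 6 times its effect was −0.28 ± 0.14 (95% interval −0.57 to 0.01, limma adjusted p = 0.124).

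The remaining 4 tested genes in shoots were not called over the 6 times. GLR3.6 changed by 0.20 (95% interval −0.06 to 0.46), GLR1.4 by 0.14 (−0.08 to 0.37), GLR3.3 by 0.13 (−0.04 to 0.30) and CML43 by −0.09 (−0.68 to 0.50). The interval of CML43 was wide, and only 3 of its 36 shoot arrays reached the 40th percentile. Counted over the 10 members, 2, 4, 5, 3, 3 and 2 had groups that did not overlap at 1, 3, 6, 12, 48 and 72 h, beside 24%, 28.8%, 31.5%, 26.2%, 27.3% and 33% of all probe sets.

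In roots no member was called at any time, while 8 to 13 of the 13 low-oxygen genes were. None of the 9 tested passed in limma at 1, 3, 6, 12, 48 or 72 h (background 3.56%, 6%, 9.19%, 12%, 11.5% and 8.16% of 16667 probe sets), and 0, 1, 0, 0, 0 and 1 had an unadjusted p below 0.05. None passed for the mean over the 6 times (background 31.3%; 0 with an unadjusted p below 0.05) or for late minus early (background 5.18%; 1, which was CML42). The median change of the 9 members at these times was −0.16, −0.24, 0.00, −0.26, −0.16 and 0.19, beside −0.02, −0.04, −0.03, −0.08, −0.07 and 0.01 over all probe sets. A missed threshold does not show that roots were unaffected, and the intervals below give the sizes these arrays leave possible.

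CML42 was measured most tightly among the root members. At 1 h its root signal was 508, 467 and 539.99 at 10 kPa against 687, 702 and 601 at 97 kPa. At 3 h it was 566, 601 and 551 at 10 kPa against 877, 686 and 766 at 97 kPa. All low-pressure arrays lay below all controls at these 2 times, with changes of −0.39 and −0.43 that were not called (limma adjusted p = 0.29 at 3 h). From 6 h on the groups overlapped, with means of 820 ± 84.7, 741 ± 199, 638 ± 101 and 621 ± 87.6 at 10 kPa (SD, n = 3) against 706 ± 95.1, 633 ± 108, 580.2 ± 107 and 562 ± 177 at 97 kPa. The mean effect was −0.01 with a 95% interval of −0.18 to 0.16, and late minus early was 0.57 ± 0.21 (limma adjusted p = 0.111). The GAPDH 3′ to 5′ ratio was 62.9 to 89.4 in roots at 10 kPa against 138 to 179 at 97 kPa at 3 h, and 92.3 to 187 at 10 kPa against 191 to 354 at 97 kPa at 48 h, and with its log2 as a covariate the late minus early difference of CML42 was called (0.63, adjusted p = 0.0256).

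CML23 had a lower mean at 10 kPa at 6 of 6 times in roots. Its root signal ranged from 60.5 through a median of 174 to 292 at 10 kPa, against 113 through 241 to 309 at 97 kPa. The groups overlapped at every time, and the mean effect was −0.30 (95% interval −0.63 to 0.02, limma adjusted p = 0.154). CML30 was lower at 5 of 6 times in roots, with a median of 72.9 (6.80 to 149.5) at 10 kPa and 99.8 (5.95 to 272) at 97 kPa. Its mean effect was −0.59 (95% interval −1.27 to 0.09), and 4 of its 36 root arrays reached the 40th percentile. At 12 h its root signal was 6.80, 10.2 and 82.7 at 10 kPa against 103, 24.6 and 194 at 97 kPa, which overlapped.

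CML41 also varied widely among the root arrays, with a standard error of 0.76 for a single-time change, next to 0.82 for CML30. At 72 h its root signal was 51.7, 141 and 228 at 10 kPa against 163, 5.88 and 20.3 at 97 kPa, a change of 1.62 ± 0.76 that was not called (limma adjusted p = 0.198). At 48 h it was 45.0, 49.6 and 41.9 at 10 kPa against 221, 64.1 and 93.2 at 97 kPa, with the low-pressure arrays all below the controls. The mean effect was −0.08 (95% interval −0.70 to 0.55). CML43, the member furthest above shoots in roots at 97 kPa, had means of 216 ± 40.3 to 365 ± 101 (SD, n = 3) across the 6 times at 10 kPa and 224 ± 53.9 to 355 ± 16.6 at 97 kPa. Its groups overlapped at every time, and the mean effect was −0.12 (95% interval −0.37 to 0.12).

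The channels GLR3.3, GLR3.5 and GLR3.6 of the third GLR clade were not called in roots either. GLR3.3 had 284, 269.6 and 324 at 3 h at 10 kPa against 364, 391 and 387 at 97 kPa, apart but not called, and its mean effect was −0.05 (95% interval −0.27 to 0.16). GLR3.6 overlapped at every time, with a median of 282 (175 to 373) at 10 kPa and 276 (148 to 616) at 97 kPa and a mean effect of −0.02 (−0.27 to 0.23). GLR3.5 was apart at 1 h, with 108, 99.7 and 112 at 10 kPa against 77.8, 32.6 and 82.6 at 97 kPa, and at 72 h, with 143, 222 and 177 at 10 kPa against 138, 58.4 and 123 at 97 kPa. Neither was called, its mean effect was 0.22 (−0.16 to 0.61), and 5 of its 36 root arrays reached the 40th percentile. GLR1.4 had a median of 216 (22.5 to 414) at 10 kPa and 180.4 (52.9 to 439.9) at 97 kPa, with a mean effect of −0.01 (−0.45 to 0.43). Groups that did not overlap were found for 2, 3, 0, 0, 1 and 1 of the 9 members at the 6 times, beside 25.5%, 28.8%, 28.3%, 30.5%, 23.2% and 19.3% of all probe sets.

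**Figure D4:**
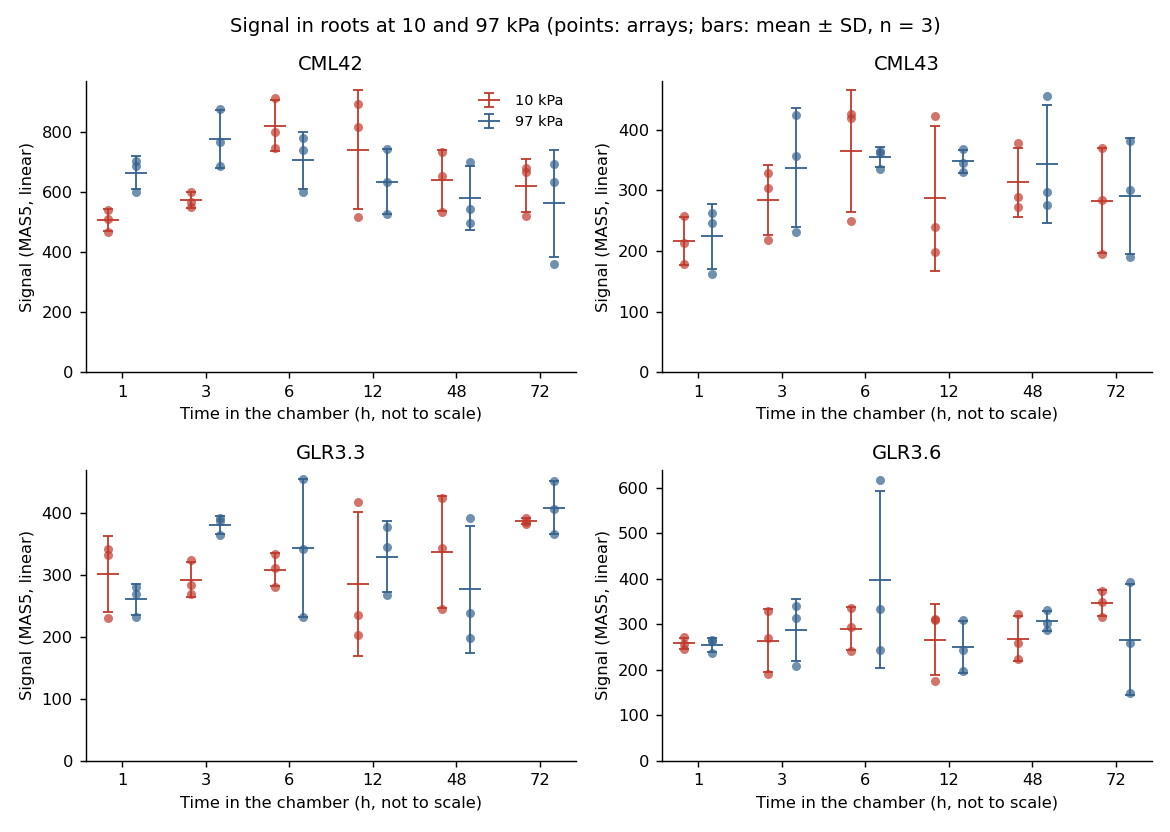
Signal (MAS5, linear) in roots by time (h, not to scale) for CML42, CML43, GLR3.3 and GLR3.6, with 10 kPa left of 97 kPa, points for arrays and bars for mean ± SD of 3. CML42 at 3 h lies at 551 to 601 at 10 kPa below 686 to 877 at 97 kPa, and most other pairs of groups overlap.

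Roots and shoots were set against each other by the difference of their mean pressure effects. This difference was called for 2 of 11 members, CML23 and CML37 (background 25.9% of all probe sets, 11.1% positive and 14.7% negative). CML23 was −0.90 ± 0.23 (limma adjusted p = 0.00233), with a lower mean at 10 kPa in roots at 6 of 6 times and a higher one in shoots at 5 of 6. The call held when each of the 72 arrays was left out in turn (−0.97 to −0.82), and with the GAPDH ratio as a covariate the value was −0.78 (adjusted p = 0.0729).

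CML37 differed by 0.84 ± 0.33 (limma adjusted p = 0.0483). Its signal was too low in each tissue alone to be tested there. In the joint fit it passed the filter through only 1 root and 2 shoot arrays, all at 97 kPa. The values that the filter used thus enter this difference, and the call is no support by itself. It was lost in 48 of the 69 fits that left out 1 array and could test CML37 (highest limma adjusted p 0.0838). In roots at 6 h CML37 had 113, 111 and 70.1 at 10 kPa against 30.2, 25.5 and 22.1 at 97 kPa. At 72 h it had 78.9, 74.1 and 80.8 in roots at 10 kPa against 59.4, 18.2 and 5.22 at 97 kPa, while in shoots it had 38.3, 49.4 and 47.3 at 10 kPa against 96.0, 111 and 181 at 97 kPa. The 2 tissues thus lay in opposite directions at 72 h, with no overlap of the pressures in either. Groups that did not overlap at 72 h made up 19.3% of all probe sets tested in roots and 33% in shoots. The share with opposite directions was not counted, and the shoot controls at 72 h included arrays by which CML37 passed the filter.

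For the other 9 members the difference was not called and ranged between −0.45 (GLR2.7, 95% interval −1.13 to 0.23) and 0.21 (CML41, −0.47 to 0.88). CML42 had −0.23 (95% interval −0.46 to −0.01, limma adjusted p = 0.129). CML30, with mean effects of −0.59 in roots and −0.77 in shoots, had 0.18 (−0.63 to 0.99). The root effects were measured less tightly than the shoot effects for 7 of the 9 genes tested in both.

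**Figure D5:**
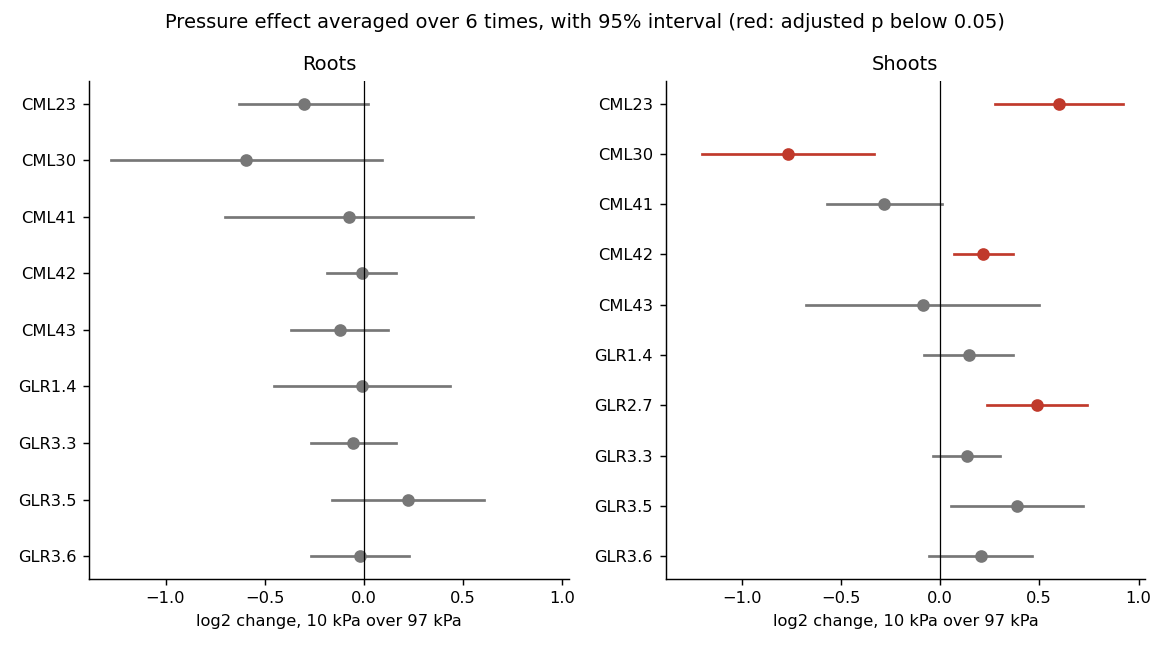
Mean log2 change over the 6 times, 10 kPa over 97 kPa, with 95% intervals from limma, for the 9 genes tested in roots (left) and the 10 tested in shoots (right), red where the adjusted p was below 0.05. In shoots CML23, CML42 and GLR2.7 lie above 0 and CML30 below it, while each root interval includes 0.

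A close relative outside the rule stood apart in roots at 1 h and, in the other direction, at 12 h, without a call. AT1G76640, which the RefSeq table gives the synonym CML39, had 163, 72.3 and 120.2 in roots at 1 h at 10 kPa against 8.88, 26.0 and 20.7 at 97 kPa. These groups were apart, but the change of 2.21 ± 1.01 was not called (limma adjusted p = 0.29). That standard error takes in the spread within all root groups, not only those at 1 h. In roots at 12 h the 10 kPa arrays all lay below the 97 kPa arrays, by −2.24 ± 1.01 (limma adjusted p = 0.159). Over all groups its means were 5.38 to 138 in roots and 2.06 to 102 in shoots. The probe set shared by GLR2.2 and GLR2.3 had group means of at most 32.8 in roots and 23.1 in shoots.

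Of 44 further genes of calcium transport, storage and response, 2 had a probe set of their own. CRT1b, a calreticulin that buffers calcium in the endoplasmic reticulum, fell in roots at 3, 6, 12 and 48 h, with changes of −0.59, −0.90, −1.19 and −0.50 (limma adjusted p = 0.011, 7.51e-05, 3.95e-07 and 0.0238). In shoots it was not called at any single time, and the root minus shoot difference of its mean effect was −0.53 ± 0.08 (limma adjusted p = 5.35e-07). NCL, a sodium and calcium exchanger-like protein, fell in roots at 3, 6 and 12 h (−0.50, −0.56 and −0.42) and in shoots at 1 and 48 h (−0.53 and −0.48). Over the 6 times it fell in both tissues, by 0.34 on the log2 scale in roots and 0.39 in shoots, and these effects did not differ past the threshold (difference 0.05 ± 0.08, limma adjusted p = 0.722).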

How the data were processed

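The deposited values are MAS5 signal intensity on a linear scale. The submitters' processing notes name Affymetrix Expression Console as the authors' tool, with no version. Each array's trimmed mean (2% off each end) was 500 as deposited. Precision is limited by the number of arrays, 3 a group. Changes were computed on log2(signal + 8.901), the pseudocount being the 10th percentile of all values, which understates changes of weak genes. A probe set was tested if 3 or more arrays had it at or above their 40th percentile: 16667 in roots, 15794 in shoots and 17901 in both. A model of group means was estimated by limma 3.58.1 under R 4.3.3 (lmFit, eBayes with a trend), 1 fit a tissue and 1 for both, with 24, 24 and 48 residual degrees of freedom, two-sided, with Benjamini-Hochberg adjustment over all probe sets. Of the 13 members, 9, 10 and 11 were tested. A member that passed through 1 group alone had to differ. Counts cover tested members only, which leaves such a member in. The part of the filter in the differences of GLR2.7 and CML37 is stated with the results. The scripts were tested on simulated data.

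Called members were named, up to 3 each way at a time and up to 5 each way in other contrasts. In each tissue, up to 8 members called at the most times, with ties ranked by the mean effect, were given by array, and close relatives by value. The members, lists and rules were chosen with earlier results of these data known. Alternatives were quantile normalization, no pseudocount (with values under 1.872 set to 1.872), a pseudocount of 50.84, no filter and a 60th percentile filter. Further ones were no prior trend, the replicate block, the tube as a random block and 6 arrays alone. The 4 arrays numbered apart were left out together, and each array was left out in turn. Of the probe sets, 503 name several genes and 8794 are not listed; neither kind is named as a member. A fit without 48 and 72 h and one with the GAPDH ratio were added after seeing the data.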

Additional observations from a re-analysis of the deposited data

Results flagged for a closer look

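The pressure effect on CML30 in shoots differed between late and early times by 1.72 on the log2 scale, and that on CML42 by 0.86, both as a tested late minus early contrast in limma (adjusted p = 0.0193 and 0.000856). With the GAPDH ratio as a covariate they were 1.14 and 0.46 and not called (adjusted p = 0.433 and 0.304). The pressure effect differed between roots and shoots for CML23 by −0.90 and for CML37 by 0.84, tested as a root minus shoot contrast (adjusted p = 0.00233 and 0.0483), and with that covariate these were −0.78 and 0.63 and not called (adjusted p = 0.0729 and 0.35). At 72 h all 3 root arrays of CML37 at 10 kPa were above, and all 3 shoot arrays at 10 kPa below, their 97 kPa arrays. The root minus shoot difference of the 2 changes was 2.87 on the log2 scale, and this difference was not tested. It was found by a search over all members and times. Groups did not overlap at 72 h for 19.3% of all probe sets in roots and 33% in shoots, and the share with opposite directions was not counted. CML37 passed the filter through only 1 root and 2 shoot arrays, and values that the filter used enter both of its differences.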

How the results depend on the processing

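Replicate numbers did not pair the arrays (0 of 36 pairs of same-numbered groups had a correlation of deviations above 0.1, range −0.073 to 0.1). With the replicate block 1 member was called for the root minus shoot effect instead of 2, and 9 instead of 11 for the tissue level. Both tissue level counts include GLR2.7, whose difference was fixed by the filter. In shoots 3 instead of 2 were called at 48 h (GLR2.7 added, limma adjusted p = 0.0361). For the shoot mean 5 instead of 4 were called (GLR3.5 added, limma adjusted p = 0.0436). The root minus shoot effect was called for 1 member, CML23, with no pseudocount, no filter, the stricter filter or without the 4 arrays numbered apart, and for 0 with the GAPDH ratio as a covariate. With that covariate 0 members were called in shoots at 48 and 72 h and for late minus early. For the shoot mean 1 was called, and 1 for late minus early in roots (CML42, higher). For the tissue level none of the 10 members other than GLR2.7 was called, and CML37 changed sign to 0.038 and CML42 to −0.39. Quantile normalization gave 4 calls in shoots at 48 h and 7 for the tissue level (again with GLR2.7 in the count), where GLR3.5 changed sign to −0.16. The stricter filter left 0 calls in shoots at 6 and 12 h, since CML30 was not tested, and 1 for late minus early. The 6 arrays of a comparison alone gave 2 calls in shoots at 3 h (CML30 and CML41, both lower) and 1 at 48 h, and at 12 h the 1 call was GLR2.7, higher, in place of CML30, lower. Leaving out 1 array gave 1 to 3 calls for the root minus shoot effect, 0 to 1 in roots at 72 h, and in shoots 1 to 2 at 6 h, 0 to 1 at 12 h, 2 to 3 at 48 h and 0 to 1 at 72 h. Where not stated, the cause was not tested. With 3 arrays a group, weak genes such as CML30 in roots had standard errors up to 0.82. Changes of that size could not be called there. Larger ones were not called either, such as −1.60 for CML30 in roots at 12 h (limma adjusted p = 0.232). The same held for 1.62 for CML41 in roots at 72 h (limma adjusted p = 0.198).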
